A study of Danio rerio with 4 samples.

Results

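Cytochrome P450 genes were taken from a table of liver RNA as all genes whose symbol starts with cyp followed by a digit, without cyp51. The rule used names only and found 53 of the 11021 genes in the table. The livers came from zebrafish larvae at 5 days post fertilisation (dpf) that carry Tg(fabp10:has.UHRF1-GFP), a transgene in which the hepatocyte promoter fabp10 drives human UHRF1 fused to GFP, in the line labelled high. Polyadenylated RNA of 2 libraries, UHRF1-high A and UHRF1-high B, was measured by sequencing. The control larvae carry Tg(fabp10:nls-mCherry), nuclear mCherry under the same promoter, and their 2 libraries were not analysed here. No value below is therefore a change against the control. The comparisons are between classes of P450 genes and between the libraries A and B of the same group. Neither the labels nor the series text tie a library to a clutch or batch, so the spread between A and B may be technical.

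Cytochrome P450 enzymes are haem proteins that insert an oxygen atom into lipophilic substrates, using electrons passed on by a reductase. In the liver, members of families 1, 2 and 3 oxidise drugs, pollutants and other xenobiotics, and many also accept endogenous lipids. Other families have narrow duties: they make bile acids from cholesterol, make steroid hormones, hydroxylate fatty acids, or inactivate retinoic acid and vitamin D. By family name, 37 of the 53 genes fell in the xenobiotic class, 5 in the bile acid class, 2 in the steroid class, 3 in the retinoid and vitamin D class and 5 in the fatty acid class. The orphan gene cyp20a1 was left in a class of its own.

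The deposited values are quantile-normalised, which makes each value a statement of rank within a library. The libraries have nearly the same summed value, 860102 in A and 860084 in B, and the sequencing depth is unknown. No source used here says if values were scaled by transcript length, and an order between different genes can therefore include their length. Each mean ± SD is over libraries A and B (n = 2).

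P450 genes ranged from the top ranks of the liver to the lowest values of the table. The mean value was at least 100 for 6 genes, with 13 between 10 and 100, 25 between 1 and 10, and 9 below 1. Ranked among all genes, the median member stood at percentile 57.5 in A and at 44.1 in B. A value above the table's median was found for 31 members in A and 24 in B. A few genes held most of the summed P450 value: the 5 with the highest mean of A and B took 63.3% of it in A and 64.9% in B. Of the 10 highest members of each library, 8 were shared.

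**Figure D1:**
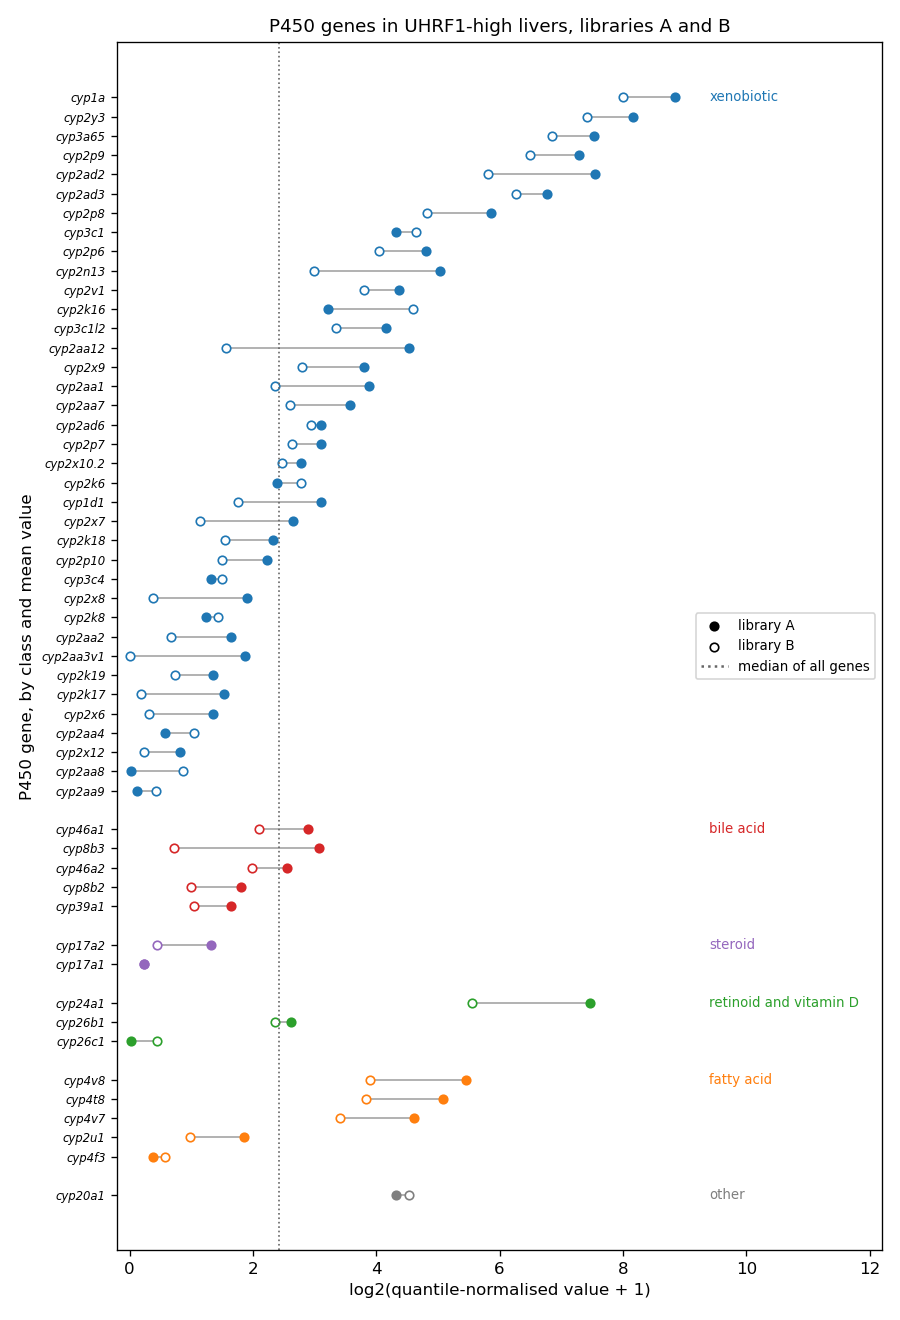
Level of each of the 53 P450 genes in UHRF1-high livers, as log2(quantile-normalised value + 1) on the horizontal axis, with 1 row per gene grouped by class and ordered by mean. Filled points are library A, open points library B, and the dotted line is the median of all genes. The xenobiotic class spans the whole range, and cyp24a1 stands far above the other retinoid and vitamin D genes.

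The highest members belonged to the xenobiotic class. The gene cyp1a, whose product oxidises planar aromatic pollutants and which is a classic target of the aryl hydrocarbon receptor, came first (chromosome 18, 4974693 to 4985565, Zv9). Its value was 457 in A against 255 in B, with a mean of 356 ± 142, and ranked 251st and 375th among all genes. The family 2 gene cyp2y3 (chromosome 15, 65203 to 71404) followed with 287 in A against 169 in B, averaging 228 ± 83.2. Next was cyp3a65, a relative of the human drug-metabolising CYP3A enzymes (chromosome 1, 60208616 to 60218576), with 184 in A against 115 in B, averaging 149 ± 49.0. The span of cyp3a65 lies within that of akap8l (43.9 in A and 47.4 in B), and whether reads were assigned by strand is not given in the sources used here. The order of these 3 genes was the same in both libraries, with every one higher in A. Their means, however, lay closer to the next than the larger SD of each pair. In library A, cyp2ad2 (187) was also above cyp3a65 (184). Neighbours further down cannot be ordered either: cyp2p9 at 123 ± 46.7 and cyp2ad2 at 121 ± 93.1 differed by less than their spread.

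Most family 2 genes sat in tandem clusters, and their levels differed widely between neighbours. Joining members at most 100 kb apart gave 6 clusters that held 33 of the 53 genes. The paralogs within a cluster resemble each other, and the way reads shared between them were counted is not given in the sources used here, so the split between neighbours is uncertain. The summed value of a cluster is given as well. It can also depend on that split, since each value was set by its rank before summing.

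The cluster on chromosome 20 (25544837 to 25623241) held 10 genes of the CYP2N, CYP2AD, CYP2V and CYP2P subfamilies, with no other gene of the table between them. These are fish relatives of mammalian CYP2J, whose enzymes epoxidise arachidonic acid. The cluster summed to 605 in A and 297 in B, 30.2% and 28.2% of the whole P450 value. Within it, cyp2p9 had 156 in A and 89.5 in B, and cyp2ad2 had 187 in A and 55.4 in B. The gene next to cyp2ad2, cyp2ad3, had 108 in A and 75.8 in B. At the other end of the range stood cyp2p10 with 3.69 in A and 1.83 in B, directly beside cyp2p9. The means of cyp2p9 and cyp2p10 lay 44.4-fold apart in deposited value. Between these extremes were cyp2p8 (57.4 in A, 27.2 in B), cyp2p6 (26.9 in A, 15.6 in B) and cyp2n13 (31.9 in A, 6.94 in B). The lower members cyp2v1, cyp2ad6 and cyp2p7 had means of 16.3 ± 4.79, 7.14 ± 0.613 and 6.41 ± 1.65. All 10 genes of this cluster were higher in A, against 48.6% of all genes with a mean of at least 1, though cyp2ad6 differed by 0.15 on the log2 scale. As paralogs that may share reads, the 10 are not separate observations.

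The other clusters were lower. The CYP2AA cluster on chromosome 23 (42822691 to 43024153), a fish subfamily, summed to 52.2 in A and 14.0 in B over 8 genes. The gene at its end, cyp2aa12, had 22.1 in A and 1.95 in B, and cyp2aa1 had 13.7 in A and 4.16 in B. The gene cyp2aa7 (10.9 in A, 5.06 in B) spans cyp2aa4 (0.487 in A, 1.06 in B), so these cannot be separated with certainty. The low members cyp2aa4, cyp2aa8 and cyp2aa9 were higher in B, each with a mean below 1, while cyp2aa3v1, at 2.66 in A, was listed at 0 in library B. In the CYP2X cluster on chromosome 25, cyp2x9 was highest with 12.9 in A and 5.95 in B, and the cluster summed to 22.5 in A and 7.71 in B. A further CYP2X gene on chromosome 7, cyp2x10.2, had 5.86 in A and 4.55 in B. The other CYP2X genes and cyp2aa2 had means between 0.477 (cyp2x12) and 3.26 (cyp2x7). Outside the clusters, the family 1 gene cyp1d1 lay far below cyp1a, with 7.58 in A and 2.38 in B.

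The clusters on chromosome 3 did not follow the others. The CYP2K cluster (12441332 to 12556776) summed to 21.4 in A and 33.4 in B. In it 3 genes were higher in A and 3 higher in B, near the 48.6% and 51% of all genes with a mean of at least 1. CYP2K enzymes are best known from rainbow trout, where a member activates aflatoxin. Its highest gene, cyp2k16, had 8.32 in A and 23.2 in B, and cyp2k6 had 4.24 in A and 5.83 in B. By contrast cyp2k17 had 1.89 in A and 0.139 in B. Without cyp2k16, the rest of the cluster summed higher in A. The means of cyp2k8, cyp2k18 and cyp2k19 lay between 1.11 and 2.99. Both clusters lie inside the span given for zgc:165627, which covers 46.5 Mb and had 0.0203 in A and 0.365 in B. The CYP3C cluster (40930898 to 40971344) summed to 37.2 in A and 35.2 in B, with cyp3c1 at 18.9 in A and 24.2 in B and cyp3c1l2 at 16.8 in A and 9.23 in B. The 2 clusters therefore held 5 of the 6 members above a mean of 1 that were higher in B.

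**Figure D2:**
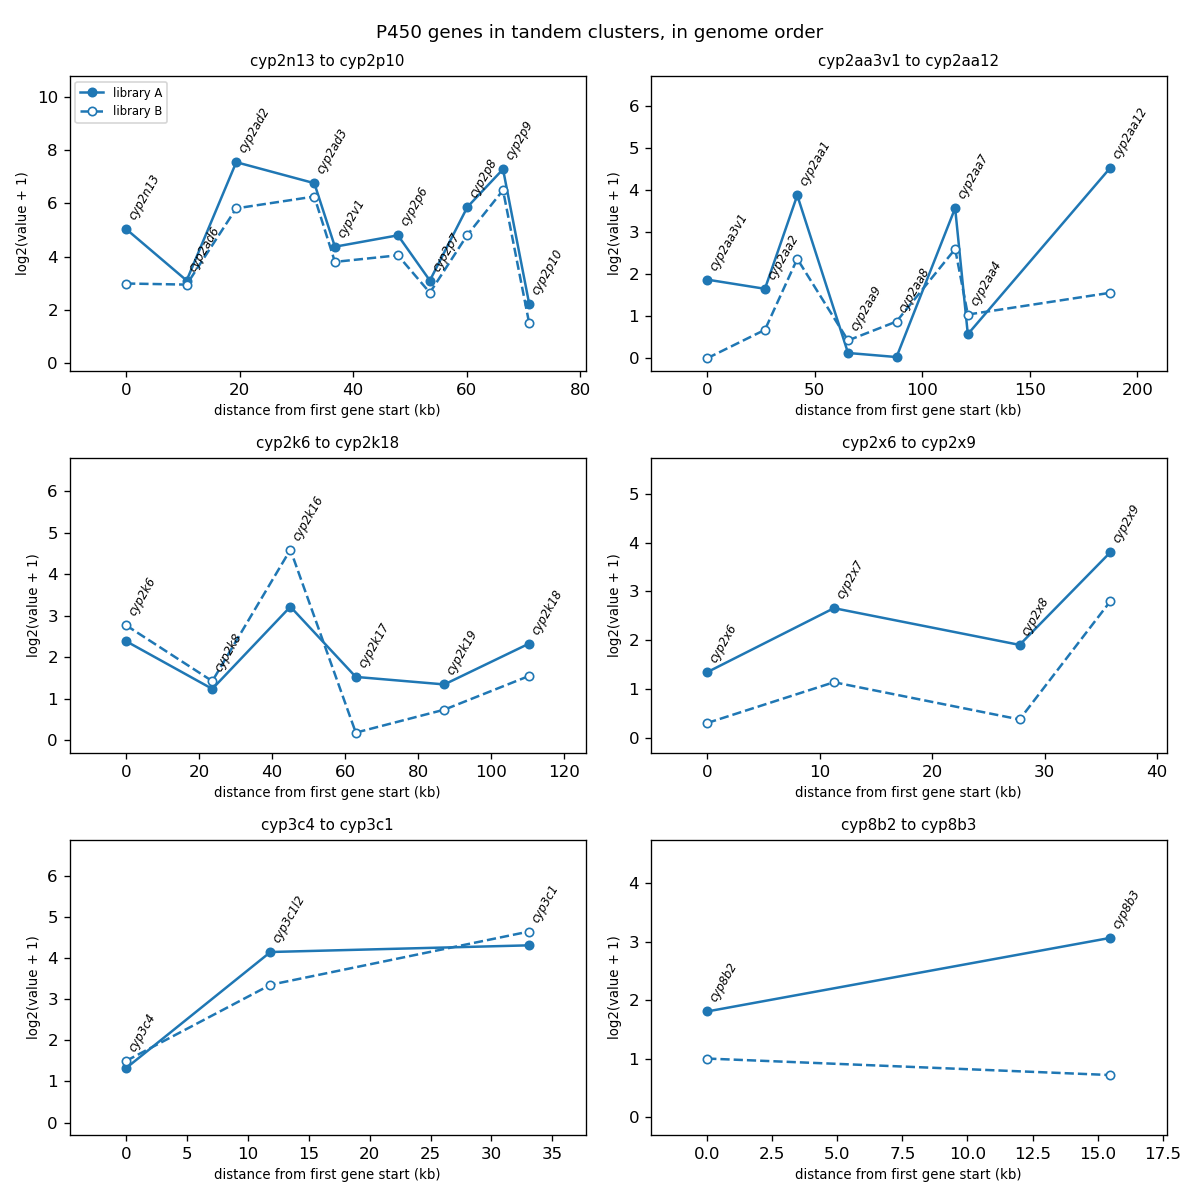
P450 genes of the 6 tandem clusters in genome order, with the distance from the start of the first gene in kb on the horizontal axis and log2(value + 1) on the vertical axis. Filled points are library A and open points library B. Levels rise and fall between neighbours, and not always the same way in both libraries. For example, cyp2ad3 lies below cyp2ad2 in A and above it in B, and cyp8b3 lies above cyp8b2 in A and below it in B. The cluster from cyp2n13 to cyp2p10 is higher in A at every gene.

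Genes of the fatty acid class, which hydroxylate the end of fatty acid chains, had the highest median of the classes with more than 1 gene. This was percentile 80.5 in A against 66.1 in B. The genes cyp4v8 and cyp4v7, which correspond to the human fatty acid hydroxylase gene CYP4V2, had 42.8 in A and 14.0 in B, and 23.5 in A and 9.67 in B. The fish gene cyp4t8 had 32.8 in A and 13.2 in B. The class was not uniform, since cyp2u1 had 2.63 in A and 0.976 in B and cyp4f3 stayed near the lowest values at 0.304 in A and 0.487 in B. Adding the 10 CYP2J-related genes gave a class of 15 genes, whose median percentile was 82.3 in A against 71.5 in B. Without them the xenobiotic class kept 27 genes and had a median percentile of 49.2 in A against 35.0 in B. With them its median percentile was 61.0 in A against 50.6 in B.

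Bile acid genes measured here had middling values in A, where 3 of 5 exceeded the table's median, and low values in B, where 0 of 5 did. The sterol hydroxylase genes cyp8b3 and cyp8b2, which act on the branch that makes cholic acid in mammals, had 7.38 in A and 0.651 in B, and 2.51 in A and 1.01 in B. The pair lies side by side on chromosome 2 (3946967 to 3964135). The cholesterol hydroxylase genes cyp46a1, whose mammalian relative acts in brain, and cyp46a2 had 6.39 in A and 3.26 in B, and 4.87 in A and 2.98 in B. The span of cyp46a1 overlaps zgc:123299, which had 3.19 in A and 0.928 in B. The oxysterol hydroxylase gene cyp39a1 had 2.14 in A and 1.06 in B. All 5 were higher in A, against 48.6% of all genes with a mean of at least 1, though the neighbours cyp8b2 and cyp8b3 may share reads. The median percentile of the class was 51.9 in A against 25.8 in B. The entry enzyme genes of bile acid synthesis, cyp7a1 and cyp27a, were not analysed here.

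Of the steroid class only the hydroxylase genes cyp17a1 and cyp17a2 were measured, and both had a mean below 1. The gene cyp17a1 had 0.183 in both libraries, and cyp17a2, whose span lies within that of vdra, had 1.51 in A and 0.365 in B. Markers of the interrenal gland, the fish counterpart of the adrenal cortex, could not be set beside them, since no gene of that list of 9 names was analysed here.

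In the retinoid and vitamin D class 1 gene stood far above the other two. The gene cyp24a1, whose product inactivates vitamin D and which in mammals is prominent in kidney, was the 6th highest P450 gene (chromosome 6, 55692331 to 55705703). Its value was 175 in A against 46.2 in B, averaging 110 ± 90.9. Of 6 measured markers of kidney tubule, 2 in A and 3 in B were above the table's median. They summed to 19.6 in A and 29.0 in B. The highest by mean, atp1a1a.4, had 5.28 in A and 15.6 in B, while slc4a4a and slc13a1 were at 0 in B. The cell type behind the cyp24a1 value was not tested. The retinoic acid hydroxylase gene cyp26b1 had 5.15 in A and 4.12 in B. Its relative cyp26c1 was at the lowest value of the table in A, 0.0203, and at 0.365 in B. The orphan gene cyp20a1 varied little, with 18.9 in A and 22.1 in B.

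Summed P450 values were higher in library A than in library B in every class but that of cyp20a1. The 53 genes summed to 2006 in A and 1055 in B, or 0.233% and 0.123% of all values. Differences were computed as log2(value + 1) in A minus B for genes with a mean of at least 1, which 44 of the 53 members passed. Of these 44, 38 were higher in A (86.4%), against 48.6% of all 8386 genes above the same filter, and 6 were higher in B, against 51% of all genes. At least 2-fold higher in A were 16 members (36.4%), against 7.07% of all genes, and at least 2-fold higher in B was 1 member, cyp2k16 (2.27%), against 6.83%. Some members, such as cyp8b3 with 0.651 in B, passed the filter only through A. Without the filter, 17 of the 53 were at least 2-fold higher in A and 1 in B, against 5.86% and 5.71% of all genes. The median difference was 0.80, or 1.74-fold, while the median of all genes was -0.015. With A and B as single libraries, this difference has no replicate of its own and no test. With a pseudocount of 10 in place of 1 the median was 0.36, and 5 members were at least 2-fold higher in A, against 2.24% of all genes. In whole livers, fewer cells of a type and less RNA per cell cannot be told apart.

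At each level of expression, the share at least 2-fold higher in A was above that of all genes. Levels were set by the mean of A and B, so a high value in either library can raise the level of a gene. Among members with a mean of 1 to 10, 8 of 25 were at least 2-fold higher in A, against 5.87% of all genes of that level. Between 10 and 100 they were 6 of 13, against 8.36%. From 100 upwards they were 2 of 6, against 9.43%. These 2, cyp2ad2 and cyp24a1, reached that level only through A, with 55.4 and 46.2 in B. Several called at the lower levels were also below their level in B, such as cyp2n13 (6.94) and cyp8b3 (0.651). In turn cyp2k16 reached its level only through B, with 8.32 in A. Over both upper levels together, 8 of 19 members were at least 2-fold higher in A, against 8.57% of all genes with a mean from 10. The median difference was 0.79, 0.80 and 0.81 at the 3 levels.

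**Figure D3:**
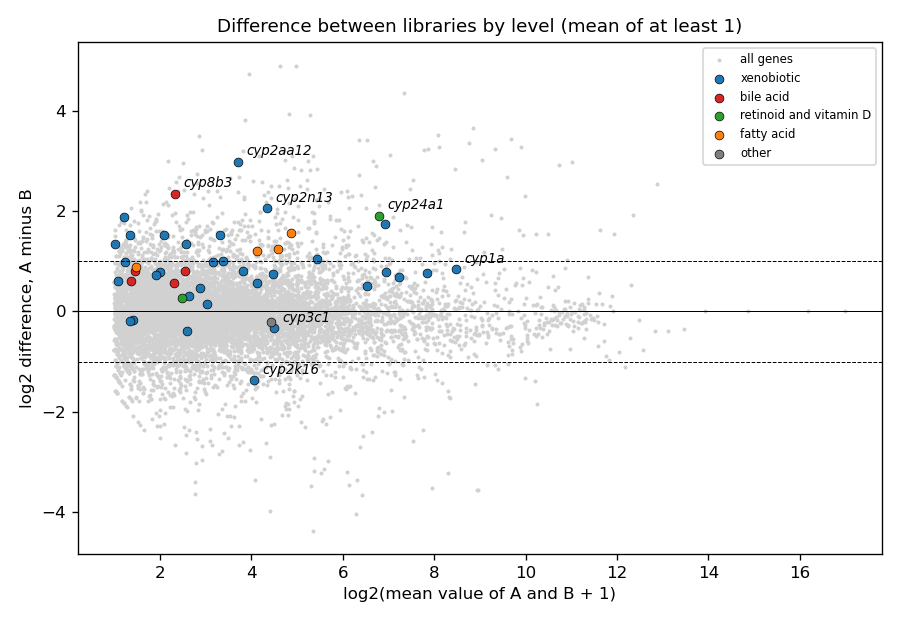
Difference between libraries, log2(value + 1) in A minus B, on the vertical axis, against the log2 of the mean value + 1 on the horizontal axis, for genes with a mean of at least 1. Grey points are all 8386 genes, coloured points the 44 P450 genes by class, and dashed lines mark 2-fold. Most P450 points lie above 0, and cyp2k16 is the only one below the lower dashed line.

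The 6 largest differences towards A came from several classes. With a pseudocount of 1, cyp2aa12 led with 2.97 on the log2 scale, and its rank was 2233rd in A and 7141st in B. Next were the bile acid gene cyp8b3 with 2.34, cyp2n13 with 2.05 and cyp24a1 with 1.90. They were followed by cyp2aa3v1 with 1.87, which rests on a value listed at 0 in B, and cyp2ad2 with 1.74. The order depended on the pseudocount: with 0.1, cyp2aa3v1 (4.79) came before cyp2aa12 (3.44), and with 10, cyp24a1 (1.72) and cyp2ad2 (1.59) came before cyp2aa12 (1.43). The 6 members higher in B differed less. Only cyp2k16 passed 2-fold with -1.37, and cyp2k6 (-0.38), cyp3c1 (-0.34), cyp20a1 (-0.21), cyp2k8 (-0.19) and cyp3c4 (-0.18) were within 1.5-fold.

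By class, the median difference was 1.22 for 4 fatty acid genes, 0.79 for 5 bile acid genes and 0.79 for 32 xenobiotic genes. At least 2-fold higher in A were 3 of the 4 fatty acid genes (cyp4v8, cyp4t8 and cyp4v7), 1 of the 5 bile acid genes and 11 of the 32 xenobiotic genes, read against the same 7.07% of all genes. The retinoid and vitamin D genes above the filter, cyp24a1 and cyp26b1, differed by 1.90 and 0.26. No steroid gene passed the filter. These ranges overlapped, and no difference between classes was tested. Ranges of subfamilies, also without a test, depended on the filter. CYP2AA genes above it lay between 0.98 and 2.97, but cyp2aa2 and cyp2aa3v1 passed it only through A. The CYP2AA genes below it, cyp2aa4, cyp2aa8 and cyp2aa9, differed by -0.47, -0.85 and -0.30. CYP2K genes, all above the filter, lay between -1.37 and 1.34, and CYP3C genes, also all above it, between -0.34 and 0.80.

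Genes that serve P450 enzymes or control P450 genes went both ways. From a list of 29 names, some of them alternatives for 1 gene, 21 genes were measured and 18 passed the filter. Of these, 10 were higher in A and 8 in B, with a median of 0.30 on the log2 scale. At least 2-fold higher were 5 in A and 1 in B, against 7.07% and 6.83% of all genes. The 5 were cyb5a, cyb5r2 and the regulators hnf4a, nr1i2 and ahr1a, and the 1 in B was nr0b2a. Of these, nr1i2 and ahr1a (0.447 and 0.426 in B) passed the filter only through A, and nr0b2a (0.183 in A) only through B. The counts past 2-fold therefore rest in part on the filter. Among the electron donors, the reductase gene porb (listed as zgc:63480) had 133 in A and 73.6 in B. Its paralog por had 8.30 in A and 11.7 in B. Cytochrome b5, which assists some P450 reactions, was high, with cyb5a at 164 in A and 78.1 in B. The cytochrome b5 reductase gene cyb5r2 had 63.0 in A and 17.8 in B, while cyb5r3 had 41.5 in A and 45.9 in B and cyb5r1 averaged 29.0 ± 5.64. The ferredoxin gene fdx1l had 19.4 in A and 23.1 in B, while the listed ferredoxin genes fdx1 and fdx1b were not analysed here. The haem-binding membrane protein gene pgrmc1, whose product binds P450 enzymes, had 138 in A and 169 in B. Its paralog pgrmc2 had 18.4 in A and 22.3 in B, and cyb5b, the mitochondrial form of cytochrome b5, had 17.3 in A and 8.77 in B. The reductase gene cyb5r4 had 2.75 in both libraries.

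Receptors and other factors that control P450 genes covered a wide range of values. The aryl hydrocarbon receptor gene ahr2, through which cyp1a is induced in zebrafish, had 5.28 in A and 4.86 in B. Its paralog ahr1a had 2.51 in A and 0.426 in B, and the partner gene arnt had 2.59 in A and 1.53 in B. The further paralogs ahr1b and arnt2 had means below 1. The repressor gene ahrra, itself a target of the receptor, had 0.833 in A and 0.488 in B. The value of ahr2 was close in both libraries, beside a cyp1a value 1.79-fold higher in A, and a link between these was not tested. The xenobiotic receptor gene nr1i2 had 2.59 in A and 0.447 in B. The bile acid receptor gene nr1h4 had 30.6 in A and 20.5 in B. Its target nr0b2a, which in mammals represses bile acid synthesis genes, went the other way with 0.183 in A and 3.08 in B. The hepatocyte factor gene hnf4a had 29.3 in A and 12.6 in B.

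Markers of several cell types moved with this difference between libraries. Exocrine pancreas markers were higher in A: 13 of 13 measured genes passed 2-fold, against 7.07% of all genes above the filter. They summed to 11611 in A and 1314 in B. Skeletal muscle markers were higher in B, 18 of 18 above the filter by at least 2-fold, against 6.83% of all genes. Their sums were 532 in A and 4590 in B, with tnnt3a and pvalb3 at the lowest value in A. Skin markers summed to 259 in A and 613 in B. Of 10 above the filter, 6 were at least 2-fold higher in B and 1 in A, read against the same shares. The 3 measured biliary markers summed to 1004 in A and 2394 in B. All 3 were at least 2-fold higher in B, against 6.83% of all genes. Nearly all of this sum came from the keratin genes krt8 (577 in A, 1444 in B) and krt18 (418 in A, 926 in B). The other gene, sox9b, was far lower, with 8.59 in A and 23.98 in B. Whether krt8 and krt18 stand for bile duct cells here was not tested. Among intestine markers, 6 genes summed to 2706 in A and 1427 in B, nearly all from apoa4. The next highest, fabp2, was higher in B (115 in A, 151 in B), while vil1 was higher in A (1.81 in A, 1.40 in B). Below a mean of 1, slc15a1b and anpepb were higher in B, and cdx1b had 0.183 in A and was at 0 in B. Of 10 hepatocyte markers, apoa1b, apoa2 and fabp10a had identical values in both libraries because they held the same top ranks, and tfa, rbp4 and serpina1 were at least 2-fold higher in A. Thus 3 of 10 were at least 2-fold higher in A and 0 in B, against 7.07% and 6.83% of all genes. The other 4 went both ways or hardly differed: cp had 34.1 in A and 63.8 in B, ambp 1691 in A and 1728 in B, fga 1335 in A and 1250 in B, and fgb 1282 in A and 1162 in B. The median of the hepatocyte list was 0.047 on the log2 scale. It counts apoa1b, apoa2 and fabp10a at 0, where equal ranks hide any difference in amount. The part of these cell types in the P450 difference was not tested.

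**Figure D4:**
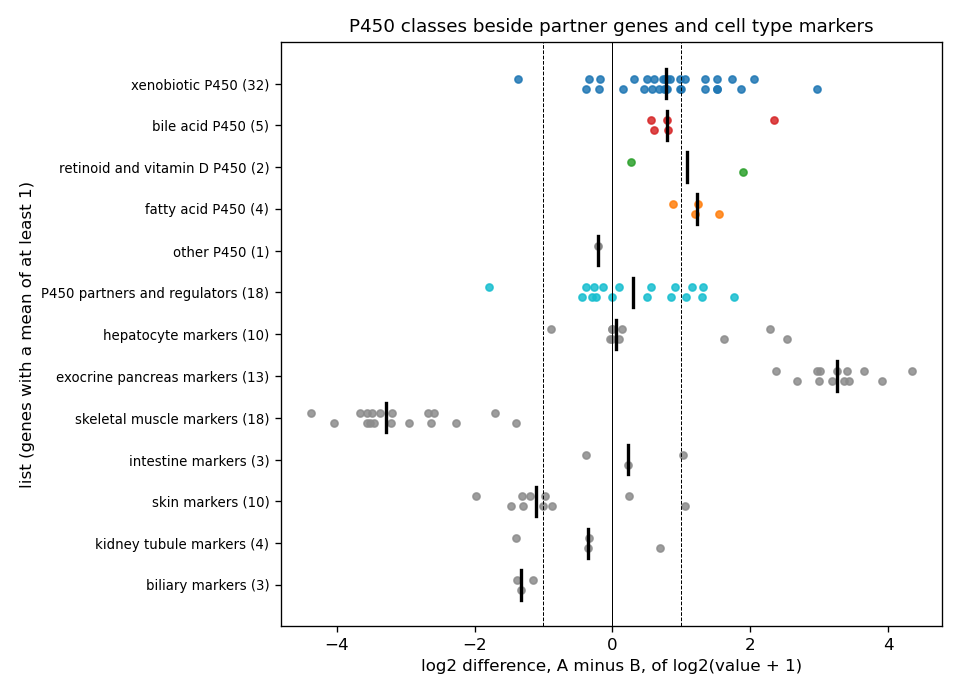
Difference between libraries, log2(value + 1) in A minus B, for P450 classes, for P450 partner and regulator genes and for cell type markers. Each point is a gene with a mean of at least 1, the number of genes is in parentheses, black bars are medians and dashed lines mark 2-fold. Most P450 classes lie to the right of 0, between the exocrine pancreas markers on the far right and the skeletal muscle markers on the far left.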

How the data were processed

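RNA was extracted with Trizol, selected on poly-A beads and fragmented, per the labels' protocols. The deposited signal values are quantile-normalised, a step of the authors that the table's own name records. The submitters' processing notes name Zv9 (danRer7) and CASAVA 1.7. The counter, annotation, gene filter, strand use and unit before normalisation were not given in the sources used here. No per-sample column was left unused (0). Starts are counted from 1. Of the 53 symbols, 45 match a present RefSeq symbol (GRCz12tu) and 8 match through an older one.

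Percentiles are ranks among all genes. Differences use a pseudocount of 1 and a mean of at least 1 (Python 3.11.15, pandas 2.3.3, scipy 1.17.1), and the code was checked on simulated data. The planned limma fit against the control was not run, since it needs values of both groups. Named genes are the 25 highest members, the 6 largest differences each way, all bile acid, steroid, retinoid and vitamin D members, and the partner list; other members were named to account for all 53. Members, classes and lists were chosen with earlier results of these data known.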

Additional observations from a re-analysis of the deposited data

How the results depend on the processing

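No alternative turned the direction of a class median. A pseudocount or a filter cannot turn the direction of a single member's difference, so these settings do not test it. For the same reason a pseudocount could hardly turn a class median. Median scaling turned no direction either, but it hardly changes values that are already quantile-normalised. Over the 44 members the median difference (log2, A minus B) was 0.80, and it was 0.36 with a pseudocount of 10. With that pseudocount, 5 members were at least 2-fold higher in A and 0 in B, against 2.24% and 1.60% of all genes. That setting also gave 0.41 for the xenobiotic class, 0.20 for bile acid genes and 0.084 for partner genes. With a mean of at least 10, where fewer genes enter, 8 of 19 members were 2-fold higher in A (8.57% of all genes), the partner median was 0.56 and the retinoid and vitamin D value, now cyp24a1 alone, was 1.90. Without a filter those medians were 0.10 and 0.26. In alternatives chosen after seeing the data, summing each tandem cluster gave 9 of 21 units 2-fold higher in A and 0 in B. Leaving out the 21 members whose span overlaps another gene left 12 in A and 0 in B. Of those left out, cyp17a2, cyp2x6, cyp2aa4 and cyp2x12 were already below the filter and not among the 44. With the main settings the shares of all genes were 7.07% and 6.83%, so 0 in B among so few units is not far from its share. Of the 21 overlapping members, 5 overlap a gene shorter than 1 Mb. The others lie inside longer rows such as zgc:165627. Among levels, with library A or B alone the bile acid median lay at percentile 25.8 to 51.9. The xenobiotic median was 43.4 with CYP2J-related genes moved out. When low genes (mean under 1) were left out of the ranking, the retinoid and vitamin D median was 63.2 and cyp20a1 was 71.4. Leaving out a library ends the difference between A and B, so it gave no value there. No paired analysis was possible because only 1 group had values. Depth is unknown, so the counting error, largest for low values, cannot be estimated.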

Other observations

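Other genes of vitamin A and D handling were looked up after the value of cyp24a1 had been seen. Of 33 names, 24 were measured and 20 had a mean of at least 1. Of these 20, 12 were higher in A and 8 in B, against 48.6% and 51% of all genes. At least 2-fold higher were 5 in A and 3 in B, against 7.07% and 6.83% of all genes, and the median difference was 0.24 on the log2 scale. The vitamin D genes gc, vdra and vdrb, a few picked from this list, were each higher in A. The rxr receptor genes went both ways, such as rxraa with 4.94 in A and 6.49 in B, and rxrba with 3.40 in A and 2.45 in B. The vitamin D binding protein gene gc had 610 in A and 84.9 in B, and the receptor genes vdra and vdrb had 8.53 in A and 1.67 in B, and 2.45 in A and 0.365 in B. The span of vdra contains cyp17a2. Vitamin A genes went both ways. The plasma carrier gene rbp4 had 1673 in A and 342 in B, and the cellular carrier rbp2b had 1444 in A and 821 in B, while its paralog rbp2a had 42.5 in A and 87.8 in B. The retinoic acid synthesis genes aldh1a2 and rdh10a were higher in B, with 4.12 in A and 6.32 in B, and 9.90 in A and 22.8 in B. The paralog of rdh10a, rdh10b, was higher in A, with 20.5 in A and 16.8 in B.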
